A study of Drosophila melanogaster with 2 samples.

Results

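The cuticle protein genes of Drosophila melanogaster were taken as all protein-coding genes whose symbols begin with Cpr, Twdl, Lcp, Ccp84A or Edg, and these prefixes matched 121 of the 13945 protein-coding genes on the 6 chromosome arms. The gene named Cpr alone encodes NADPH-cytochrome P450 reductase, the electron donor of microsomal P450 enzymes, and shares only its letters with the others. The remaining 120 genes were 70 Cpr genes, 25 Twdl genes, 15 Lcp genes, 7 Ccp84A genes and 3 Edg genes, and they are called cuticle protein genes below. Of all 121 genes, 46 lay on 3L, 33 on 3R, 27 on 2R, 8 on X and 7 on 2L, and none lay on chromosome 4.

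Insect cuticle is an extracellular layer of chitin fibres in a protein matrix, secreted by the epidermis and by the linings of the trachea, foregut and hindgut. Most Cpr, Lcp and Ccp84A proteins carry the Rebers and Riddiford consensus, a chitin-binding domain. Tweedle (Twdl) proteins form a separate insect family that shapes the larval body, and the Edg genes were named for their dependence on ecdysone. The first larval cuticle is laid down late in embryogenesis, and later cuticles are laid down at each moult under the control of ecdysone-regulated transcription factors. Stat92E is the only STAT protein of the fly: ligands of the Unpaired family act through the receptor Domeless and the kinase Hopscotch, and the activated factor binds TTC and GAA half-sites separated by a short spacer.

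The embryos were collected whole at 0 to 12 h of age, both sexes together, from a transgenic line that stably expressed Stat92E with a C-terminal eGFP, and ChIP-seq was used to map the tagged protein on chromatin. Per the labels, chromatin was fragmented by sonication to 200 to 800 bp and precipitated with an antibody against GFP, although the antibody field names Stat92E. The only group held 2 biological replicates, numbered 1 and 3, and no unprecipitated or untagged sample was analysed here. The labels do not say what drives the tagged protein or whether the untagged protein remained, and whole embryos of this age mix stages and tissues. No RNA was measured, so nothing below says whether a gene was transcribed, and a tissue label cannot be checked against markers.

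Values came from 4 deposited peak lists: 30000 peaks of replicate 1, 30000 of replicate 3, 30000 of both replicates pooled, and 3603 peaks kept by a threshold on the irreproducible discovery rate (IDR), called the reproducible list below. All 3603 peaks of the reproducible list were the strongest 3603 of the pooled list. Its signal scores started at 121 with a median of 160, whereas the whole pooled list reached down to 27.7. The authors' −log10 q was 3.62 throughout the reproducible list and as low as 0.396 in the pooled list, where 10189 peaks had a value of at least 2. Peak ranks below count from the highest signal in each list. Read depth is unknown, so a missing summit means only that no peak was listed there. A gene was counted where a summit, the highest point of a peak, lay within 1 kb of any of its annotated transcription start sites (TSSs). With 1 group and no control sample there was no test, and the counts are set beside the same counts over all protein-coding genes.

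No cuticle protein gene had a reproducible summit within 1 kb of a TSS. The count was 0 of 120, against 2976 of all 13945 protein-coding genes, or 21.3%. The prefixes gave 1 gene of 121, or 0.826%, and that gene was the P450 reductase gene Cpr. In the pooled list 15 of the 120 cuticle protein genes (12.5%) had a summit, against a background of 59.3%. In replicate 1 the count was 14 (11.7%) against 58.5%, and in replicate 3 it was 16 (13.3%) against 61%. A summit in both replicate lists was found for 8 genes (6.67%), against 53.9% of all genes. The cuticle protein genes were thus below the background in every list, and 96 of them (80%) had no summit in any of the 4 lists, compared with 33.8% of all protein-coding genes.

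The low counts were not shared by a housekeeping family and were in the pooled list near those of another family of tissue-specific genes. Among 92 cytoplasmic ribosomal protein genes, 67 (72.8%) had a reproducible summit and 84 (91.3%) a pooled summit. Among 179 odorant, gustatory and ionotropic receptor genes, which act in sensory neurons, 6 (3.35%) had a reproducible summit and 27 (15.1%) a pooled summit. In both replicate lists there were 17 receptor genes (9.5%), near the 6.67% of the cuticle protein genes. Whether cuticle protein genes differ from receptor genes was not tested.

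Wider windows raised the counts and left them below those of all genes. A reproducible summit lay within 2 kb of 0.833% of the cuticle protein genes, within 5 kb of 4.17%, within 10 kb of 15.8% and within 20 kb of 32.5%. Over all protein-coding genes those shares were 25.2%, 37.4%, 51.3% and 67.5%. The median distance from a cuticle protein gene to the nearest reproducible summit was 25.7 kb, the smallest was 1292 bp and the largest 110463 bp. The median over all genes was 9.48 kb and over the receptor genes 34.1 kb. For the pooled list the median was 9.51 kb for the cuticle protein genes and 312 bp for all genes.

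**Figure D1:**
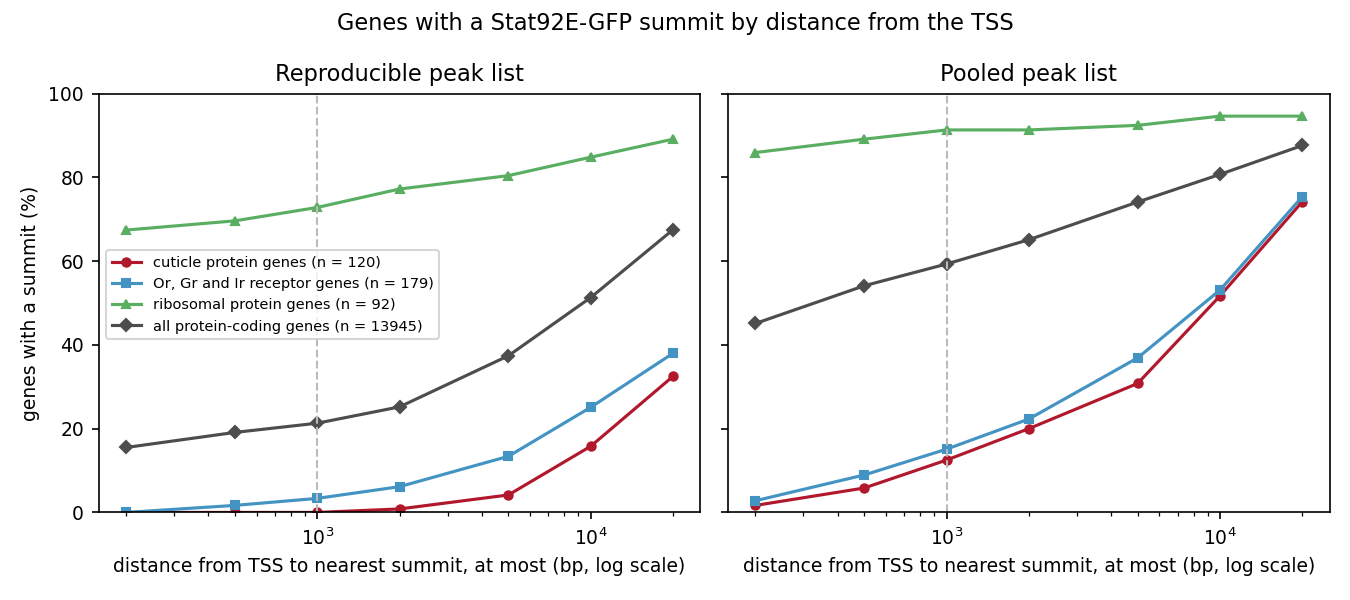
Share of genes (y axis, percent) with a summit no farther from a TSS than the distance on the x axis (bp, log scale), in the reproducible list (left) and the pooled list (right). The cuticle protein genes (red) lie below all protein-coding genes (dark grey) at every distance plotted, near the receptor genes (blue) in the pooled list and below them from 500 bp on in the reproducible list, and are at 0 and 12.5% at 1 kb (dashed line), where all genes are at 21.3% and 59.3%.

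The nearest reproducible summits mostly lay nearer to genes outside the family. Only 50 different summits served as the nearest one to the 120 genes. For 119 genes the protein-coding gene nearest to that summit was not a cuticle protein gene. The same count was not made over all genes. With 3601 reproducible summits on the arms and 13945 genes, most genes have a nearest summit that lies nearer to another gene. Among the 120, the exception was Cpr35B, a Rebers and Riddiford gene on 2L. The summit nearest to it was 9.96 kb upstream of its TSS, with rank 748 and a signal of 215, in a peak at chr2L:14435137-14435265. No other protein-coding TSS lay nearer to that summit.

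Within 5 kb, a reproducible summit was found for 5 cuticle protein genes. Cpr47Eg was nearest, at 1292 bp from a summit of rank 2555, followed by Cpr57A at 2006 bp from rank 2765. The former summit was nearest to Vhl, the gene of a ubiquitin ligase subunit, and the latter to CG13430 and BORCS7. Cpr73D lay 2037 bp from the summit of rank 279, which was nearest to Ogdh, the gene of a 2-oxoglutarate dehydrogenase subunit. Cpr67B lay 2428 bp from rank 1504, nearest to eIF4E1, a cap-binding translation initiation factor. Cpr78Cc lay 3996 bp from rank 25, which was nearest to CG11309 and was the strongest of these summits. In each of the 5 cases the summit was nearer to another gene, a count that was likewise not made over all genes.

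The P450 reductase gene Cpr, the only one of the 121 with a reproducible summit, also ranked above every cuticle protein gene in the other lists, narrowly in replicate 1. It had 7 pooled summits within 1 kb of its 4 TSSs, which lie at positions 6338836, 6339825, 6341755 and 6343699 of 2L. The strongest, rank 3046 with a signal of 130 and a −log10 q of 3.62, was in a peak at chr2L:6343413-6343882, in an intron and 51 bp upstream of the most downstream TSS. Its best rank was 4132 (signal 68.8) in replicate 1, close to the 4226 (signal 68.2) of Cpr73D. In replicate 3 the best rank of Cpr was 2928 (signal 61.4), 7 bp downstream of its most upstream TSS. Among the 3603 strongest peaks of replicate 3 alone Cpr was again the only gene of the 121 with a summit, and among those of replicate 1 alone there was 0 of 121. Counting only the most upstream TSS of each gene removed Cpr from the reproducible count.

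Of the cuticle protein genes, 4 had a pooled summit with a −log10 q of at least 2, and they are described first. Cpr73D had the strongest, rank 4215 with a signal of 112, so the threshold of the reproducible list at rank 3603 fell between Cpr at rank 3046 and Cpr73D. The Cpr73D summit had rank 4226 (signal 68.2) in replicate 1 and 6258 (signal 42.6) in replicate 3. It lay 673 bp downstream of the Cpr73D TSS but 423 bp from a TSS of Ogdh, inside an Ogdh intron. Lcp9, a larval cuticle protein gene on 2R, had a summit of rank 6658 with a signal of 87.1, listed at rank 9289 (signal 43.6) in replicate 1 and 8019 (signal 37.1) in replicate 3. This summit was 431 bp upstream of Lcp9 and 58 bp from a TSS of CG3594, and a weaker Lcp9 summit of rank 17880 was 6 bp from a TSS of egg, which encodes a histone H3K9 methyltransferase. For both Cpr73D and Lcp9 the strongest summit was therefore nearer to a gene outside the family.

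Cpr65Az and Cpr64Aa had the strongest pooled summits with their own TSS as the nearest. Cpr65Az, the last gene of the large 65A array, had a summit of rank 7130 with a signal of 83.6, 784 bp upstream. Its best rank was 6565 (signal 54.2) in replicate 1, 914 bp upstream, but 19532 (signal 21) in replicate 3, 597 bp upstream. Replicate 1 also had a Cpr65Az summit of rank 8857 at 713 bp upstream. A further pooled Cpr65Az summit, rank 18953, lay 51 bp upstream of the TSS. Cpr64Aa had a summit of rank 9614 with a signal of 68.8, 725 bp upstream and within an intron of CG43367. Here replicate 3 was the stronger, at rank 6052 (signal 43.4) against rank 19153 (signal 25.7) in replicate 1. The replicate with the better rank thus differed between these 2 genes. For Cpr65Az the replicate summits lay at different positions, but the replicate 1 peak of rank 8857 overlapped the replicate 3 peak. Of the 9 genes of the 121 in both replicate lists, all 9 had overlapping replicate peaks and 8 had replicate summits within 100 bp.

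Next were Cpr67B, rank 12088 at 522 bp upstream, and Cpr78E, rank 12780 at 733 bp upstream, each intergenic, nearest to its own TSS and in both replicate lists. Cpr67B was at rank 14689 in replicate 1 (459 bp upstream) and 12418 in replicate 3 (373 bp upstream), and Cpr78E at 16367 and 11549. The 101 bp centred on the strongest pooled summit are shown for these 4 genes, the strongest whose summit was nearest to a TSS of their own, and for Cpr, on the plus strand. A STAT site, TTC and GAA separated by 3 or 4 bases, would be in capitals, and none of the 5 windows held one.
Cpr (chr2L:6343598-6343698): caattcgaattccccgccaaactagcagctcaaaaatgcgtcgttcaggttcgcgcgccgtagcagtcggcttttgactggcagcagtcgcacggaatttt
Cpr65Az (chr3L:6159980-6160080): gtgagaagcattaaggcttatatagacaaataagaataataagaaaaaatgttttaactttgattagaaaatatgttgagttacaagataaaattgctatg
Cpr64Aa (chr3L:4209853-4209953): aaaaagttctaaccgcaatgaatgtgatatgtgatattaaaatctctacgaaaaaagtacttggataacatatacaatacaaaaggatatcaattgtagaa
Cpr67B (chr3L:9404225-9404325): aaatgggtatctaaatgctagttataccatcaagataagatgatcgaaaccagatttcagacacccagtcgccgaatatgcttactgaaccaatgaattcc
Cpr78E (chr3L:21667663-21667763): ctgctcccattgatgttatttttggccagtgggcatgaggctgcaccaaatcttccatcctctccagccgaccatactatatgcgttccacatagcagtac

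Among all 21 pooled summits within 1 kb of cuticle protein genes, 2 (9.52%) had a STAT site within 50 bp, at Cpr49Ag and Cpr73D. The share was 8.53% of all pooled summits and 14.8% of reproducible summits on the arms. The median GC content of the same 21 windows was 38.6% and ranged from 23.8% to 68.3%. The medians were 43.6% over all pooled summits and 40.6% over reproducible summits.

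The remaining pooled summits were weak and mostly in 1 replicate or none. Edg91, which encodes a glycine-rich cuticle protein, and Cpr67Fb were in both replicate lists. Edg91 was at pooled rank 19632, 330 bp upstream of its TSS, and at rank 23088 in replicate 1, 325 bp upstream. In replicate 3 its better summit, rank 19621, lay 158 bp upstream, and that of rank 29322 lay 366 bp upstream. Cpr67Fb was at pooled rank 16956, 668 bp upstream, and at rank 18630 in replicate 1, 678 bp upstream. Its replicate 3 summits were of rank 28405 at 384 bp upstream and rank 28966 at 648 bp upstream.

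Cpr65Ay (rank 15025), Cpr67Fa2 (rank 15627) and Cpr49Ag (rank 25139) also had a summit in replicate 1 only. TwdlF (rank 18747) and Cpr64Ad (rank 28397) also had one in replicate 3 only, but at other positions. The replicate 3 summit of TwdlF lay 301 bp upstream, and that of Cpr64Ad 279 bp downstream, where the pooled one was 501 bp downstream. TwdlF, the only Tweedle gene with a summit in any list, was the only cuticle protein gene whose strongest pooled summit lay within 200 bp of a TSS, at 68 bp downstream. Neither replicate list had a summit within 200 bp of that TSS. The Cpr67Fa2 summit, 997 bp downstream, was just inside the 1 kb limit, and that of Cpr65Ay was nearer to CG13297, at 447 bp. Cpr65Ec (rank 22966) and Cpr35B (rank 27136) had a pooled summit and none in either replicate.

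A further 9 genes had a summit in a single replicate and none in the pooled list. These were Cpr23B, Cpr47Eg and Cpr78Cb in replicate 1, at ranks 21463, 15810 and 13109. In replicate 3 they were Edg78E at 12482, Edg84A at 13336, Cpr72Eb at 18786, Cpr64Ac at 22988, Cpr57A at 24125 and Cpr51A at 29208. All 3 Edg genes had a summit in replicate 3, but only Edg91 also had one in replicate 1. Besides the 8 cuticle protein genes in both replicate lists there were thus 6 in replicate 1 only and 8 in replicate 3 only.

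**Figure D2:**
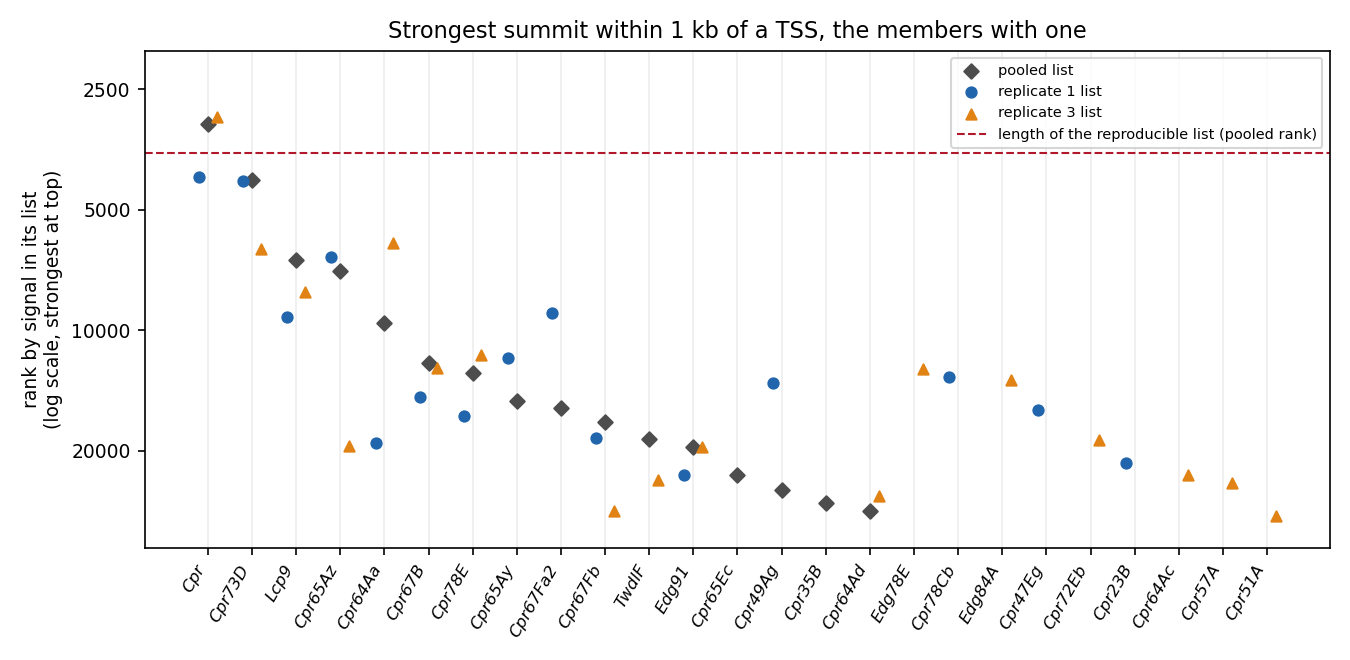
Rank by signal (log axis, strongest at the top) of the strongest summit within 1 kb of a TSS for the 25 genes of the 121 that had a summit in any list, in the pooled list (grey diamonds), replicate 1 (blue circles) and replicate 3 (orange triangles). Only summits of Cpr lie above the dashed line at rank 3603, the length of the reproducible list, and the 9 genes at the right have no pooled summit.

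The pooled summits of cuticle protein genes were weak and far from the TSS. Over the 15 genes the median rank of the strongest summit was 15627 and its median signal 47.8, against 5348 and 99.2 over the 8264 genes with a pooled summit. The 27 receptor genes with a pooled summit were near the cuticle protein genes, with a median rank of 15735 and a median signal of 47.5. A −log10 q of at least 2 was reached by 26.7% of the cuticle protein genes, 33.3% of the receptor genes and 73.4% of all genes with a summit. The median distance to the TSS was 668 bp, against 451 bp over the receptor genes, 140 bp over all genes and 74.5 bp over the ribosomal protein genes. Only 1 of 15 (6.67%) lay within 200 bp, against 61.4% of all genes, and 13 of 15 (86.7%) lay beyond 400 bp, against 22.5%. For the receptor genes these shares were 14.8% and 59.3%. Of the 15 summits 8 were upstream of the TSS, and for 12 genes (80%) the gene's own TSS was the nearest, close to the 73% of all genes. In the replicates the medians were 676 bp (14 genes, replicate 1) and 450.5 bp (16 genes, replicate 3), against 154 bp and 155 bp over all genes. Over the receptor genes they were 522 bp and 585.5 bp, so in replicate 3 the receptor summits lay farther out.

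**Figure D3:**
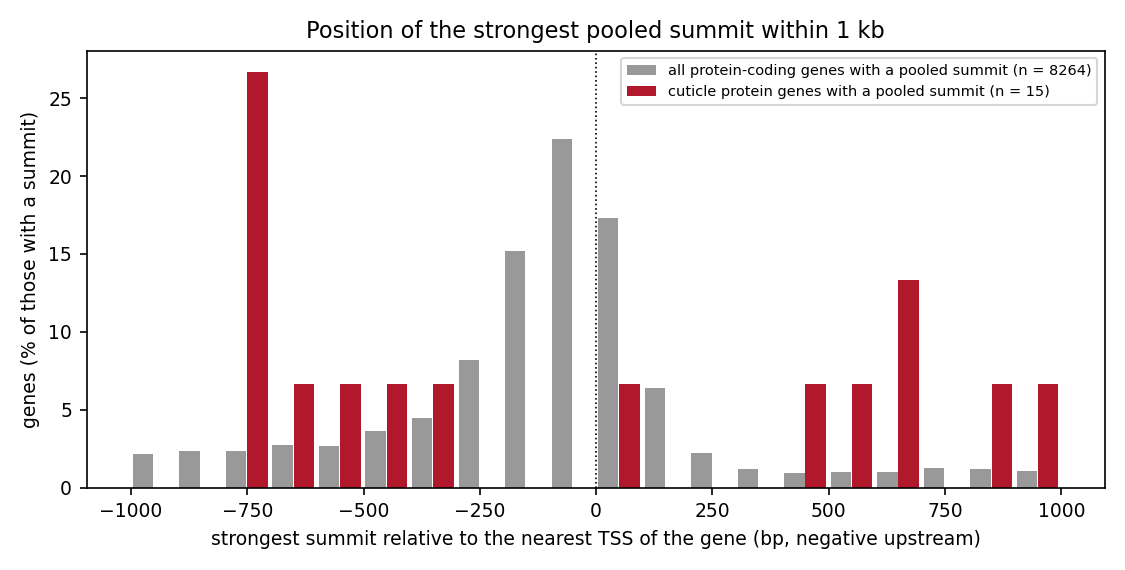
Position of the strongest pooled summit within 1 kb relative to the nearest TSS of the gene (x axis, bp, upstream negative, in bins of 100 bp) as a share of the genes with such a summit (y axis, percent). Summits of all protein-coding genes (grey, n = 8264) gather within 200 bp of the TSS, where 61.4% lie, and those of cuticle protein genes (red, n = 15, each gene a step of 6.67%) lie mostly beyond 400 bp.

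By family, the summits were mostly at Cpr genes. Of the 70 Cpr genes, 12 had a pooled summit, 12 one in replicate 1, 11 one in replicate 3 and 6 one in both replicates. Of the 15 Lcp genes only Lcp9 had a summit, and none of the 7 Ccp84A genes had one in any list. Of the 25 Twdl genes only TwdlF had one. By arm, the pooled summits were at 10 of 46 genes on 3L, 2 of 27 on 2R, 2 of 33 on 3R and none of the 8 on X, which had none in the replicate lists either. On 2L, 2 of 7 genes had one, Cpr and Cpr35B.

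Most cuticle protein genes sit side by side with their relatives. In 10 tandem arrays, each of at least 4 genes whose neighbouring TSSs were less than 20 kb apart, there were 72 of the 120 genes. The arrays with 1 kb on each side spanned 199 kb and held no reproducible summit. They held 9 pooled summits, or 4.52 per 100 kb, against 22.4 per 100 kb over the arms. Replicate 1 had 11 summits in them (5.52 per 100 kb) and replicate 3 had 9 (4.52 per 100 kb). Of the genes in arrays 5 of 72 had a pooled summit, and of the other cuticle protein genes 10 of 48.

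Of the 10 arrays, 6 held no pooled summit and 4 held no summit in any list. These 4 were Lcp1 to Lcp4 on 2R, which are larval cuticle genes of the third instar, Cpr76Ba to Cpr76Bd on 3L, the 12 Tweedle genes from TwdlM to TwdlD on 3R, and TwdlX to Twdlalpha on X. Lcp1 to Lcp4 lay in a stretch of 253 kb between neighbouring pooled summits, and 20 of 29992 such stretches on the arms were at least as long. The stretch was 216 kb around Cpr76Ba to Cpr76Bd, with 30 at least as long, and 150 kb around TwdlM to TwdlD, with 61. For TwdlX to Twdlalpha it was 21.2 kb, with 819 at least as long. The 3 longest of these stretches were thus, by number, among the longest of the pooled list. Long stretches cover a larger part of the arms than their number tells. The 4 arrays were also picked for holding no summit. Not all of these stretches were empty in the replicate 3 list. That list had a summit of rank 1479 (signal 79.9) within the stretch of Lcp1 to Lcp4, outside the array, and summits of rank 4739 (signal 49.4) and 8303 (signal 36.3) less than 1 kb outside the array of Cpr76Ba to Cpr76Bd.

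The other 6 arrays held summits of at least 1 list. The 8 genes from Edg84A to Ccp84Aa on 3R, which lie between the Hox genes lab and pb, held 1 summit, in replicate 3, upstream of Edg84A. Cpr78Ca to Cpr78Cc, which includes Edg78E, held 3 summits in replicate 1, all at Cpr78Cb, and 1 in replicate 3, at Edg78E. The 17 genes from Lcp65Ag3 to Cpr65Az on 3L, the array with the most genes, spanned 31.8 kb and held 3 pooled summits, all at its Cpr65Ay and Cpr65Az end. Cpr64Aa to Cpr64Ad held 2 pooled summits, Cpr49Aa to Cpr49Ah held 1, and Cpr47Ea to Cpr47Eg held 3.

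Of the 20 protein-coding genes flanking the arrays, 5 had a reproducible summit, a share near the background of 21.3%, and 8 had a pooled one, a share below the background of 59.3%. CG11309, next to Cpr78Cc, had rank 25 with a signal of 589, and scrib, a cell polarity gene next to the TwdlM array but 82768 bp away, had rank 360 with a signal of 273. The others were goe (rank 2208), pzg (rank 2483) and CG9067 (rank 2555), and CG9067 stands next to Cpr47Eg, where a reproducible summit lay 0.292 kb outside the array. Inside the arrays there were 13 other protein-coding genes, of which 0 had a reproducible summit and 2, TpnC47D and CG13297, a pooled one.

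**Figure D4:**
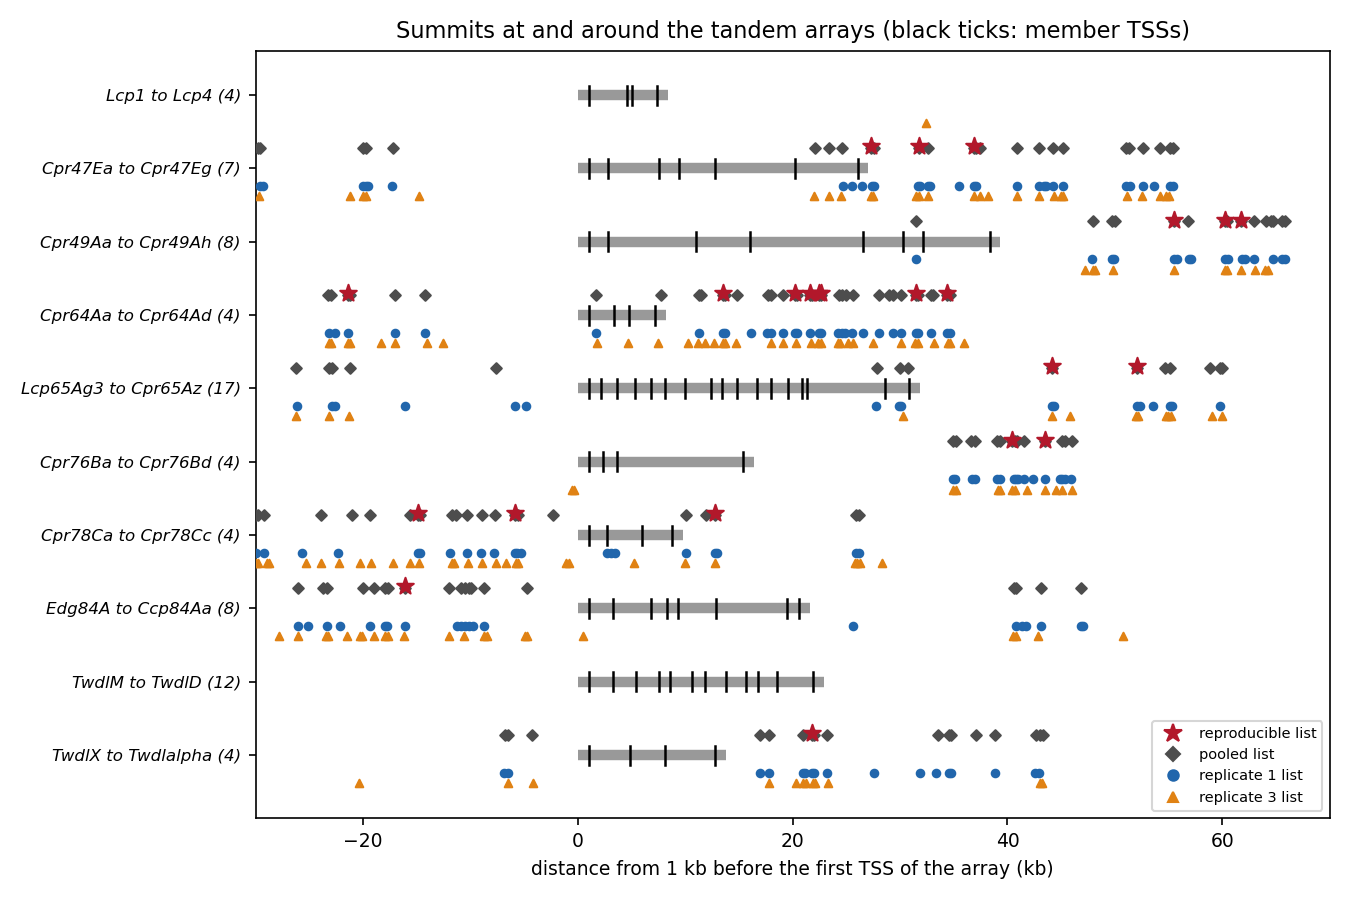
Summits of the 4 lists in and up to 30 kb around the 10 tandem arrays (grey bars, with gene numbers in brackets; black ticks are cuticle protein TSSs), by distance from 1 kb before the first TSS (x axis, kb). Summits are drawn above and below their bar; no reproducible summit (red stars) falls within the length of a bar, and the lengths of Lcp1 to Lcp4, Cpr76Ba to Cpr76Bd, TwdlM to TwdlD and TwdlX to Twdlalpha hold no summit of any list.

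Near-identical copies limit where short reads can be placed. The sequence within 1 kb of the most upstream TSS of each gene was therefore checked for 50-base words that occur once in the genome. Further TSSs of a gene were not checked. The median share of such words was 100% over the 120 genes, and 104 genes (86.7%) had at least 95%, against 94.6% of all protein-coding genes. The lowest were the duplicated Lcp65Ab1 (30.7%) and Lcp65Ab2 (30.8%), and 5 genes were under 80%. Among the 104 genes with at least 95%, 0 had a reproducible and 15 (14.4%) a pooled summit, against 22.3% and 61.3% of all genes with that share. All 24 cuticle protein genes with a summit in any list had at least 95%, and 80 of the 96 without a summit (83.3%) did. In the array from TwdlM to TwdlD, empty in all lists, TwdlL had 83.7% and TwdlB 88.8%. The part of read placement in the low counts was not tested. Neither the read length nor the handling of reads with several matches was stated in the labels.

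Promoters of cuticle protein genes commonly held a TATA box. In the window from 250 bases before to 50 after the most upstream TSS, TATAAA on the sense strand between 45 and 15 bases before the TSS was found in 74 of 120 promoters (61.7%), against 9.14% of all protein-coding promoters. The share was 80% of Lcp genes (12 of 15), 71.4% of Ccp84A genes (5 of 7), 60% of Twdl genes (15 of 25) and 55.7% of Cpr genes (39 of 70), and all 3 Edg genes had it. Its median position was 29 bases before the TSS, and 61 of the 74 (82.4%) began 24 to 34 bases before it. The 60 bases before the TSS are given for 8 genes of 5 arrays, among them the duplicated Lcp65Ab1 and Lcp65Ab2, on the gene's own strand, with the TATA box in capitals, together with Cpr, which has none.
Lcp65Ac (chr3L:6144759-6144818): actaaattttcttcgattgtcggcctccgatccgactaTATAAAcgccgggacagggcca
Lcp65Ab1 (chr3L:6149488-6149547): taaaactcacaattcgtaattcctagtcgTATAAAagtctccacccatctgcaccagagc
Lcp65Ab2 (chr3L:6146614-6146673): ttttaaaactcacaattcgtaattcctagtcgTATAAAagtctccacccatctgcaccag
Cpr76Ba (chr3L:19518333-19518392, minus strand): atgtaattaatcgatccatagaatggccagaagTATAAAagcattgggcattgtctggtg
Edg84A (chr3R:6684385-6684444): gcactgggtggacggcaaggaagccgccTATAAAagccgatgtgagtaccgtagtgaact
Ccp84Aa (chr3R:6704024-6704083): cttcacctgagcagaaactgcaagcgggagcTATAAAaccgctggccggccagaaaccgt
TwdlD (chr3R:26639965-26640024): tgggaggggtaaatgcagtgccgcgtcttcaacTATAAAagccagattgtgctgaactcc
TwdlX (chrX:16731031-16731090): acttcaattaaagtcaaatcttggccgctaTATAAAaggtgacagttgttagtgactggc
Cpr (chr2L:6338776-6338835): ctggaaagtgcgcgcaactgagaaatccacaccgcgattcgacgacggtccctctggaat

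Promoters with and without a TATA box had different shares of summits outside the family. Among other protein-coding genes, 8.92% of the 1200 with a TATA box and 22.7% of the 12624 without had a reproducible summit, and 30.1% and 62.5% a pooled summit. Among cuticle protein genes the pooled shares were 12.2% of 74 with and 13% of 46 without a TATA box. So cuticle protein genes had fewer summits than other genes in both classes of promoter, and the part of the TATA box in the low counts was not tested.

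Of the other promoter motifs, the DRE was rarer in cuticle promoters than in all promoters, and the initiator and GAGAG were near their background. The DRE, TATCGATA on either strand, a site common in housekeeping promoters, was in 1 of 120 cuticle promoters (0.833%), against 9.36% of all promoters, 16.7% of promoters with a reproducible summit and 1.87% of promoters of genes without a summit in any list. The initiator core TCAGT, on the sense strand within 10 bases of the TSS, was in 14.2% against 13.1% of all promoters. GAGAG on either strand was in 30.8% against 29.7%. The Grainyhead site AACCGGTT, recognised by a factor of epidermal barrier genes, was in 0 of 120 against 0.753% of all promoters. This site is so rare among all promoters that no difference can be read from 120.

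STAT sites were searched on both strands of the same windows. TTCNNNGAA was in 4 cuticle promoters (3.33%), against 9.23% of all promoters, and the same half-sites with a spacer of 4 bases were in 11 (9.17%), against 9.92%, and no cuticle promoter held both. Either site was in 15 (12.5%), against 18.3% of all promoters and 18.6% of promoters with a reproducible summit. Of the 15 genes, 0 had a reproducible summit, 1 had a pooled summit (Cpr78E) and 2 had a summit in any list (Cpr78E and Cpr72Eb). Of the 105 cuticle promoters without a site, 0 had a reproducible and 14 a pooled summit. Over all protein-coding genes, 555 of the 2550 promoters with a site had a reproducible and 1484 a pooled summit, and of the 11395 without a site 2421 and 6780 did. The matches on 3L and 3R are listed on the strand of the gene, to show the spacers and their distance from the TSS, and all letters belong to the site.
Cpr62Bc, 236 bases upstream: TTCGCTGAA
Cpr78Ca, 140 bases upstream: TTCCGAGAA
Cpr78E, 178 bases upstream: TTCTTAGAA
TwdlB, 104 bases upstream: TTCAAAGAA
Lcp65Ag3, 148 bases upstream: TTCAAACGAA
Cpr65Ea, 187 bases upstream: TTCCATTGAA
Cpr72Eb, 81 bases upstream: TTCCTGAGAA
Cpr92A, 28 bases upstream: TTCCAGCGAA
TwdlC, 142 bases upstream: TTCATCCGAA
Cpr97Ea, 19 bases upstream: TTCAGCTGAA

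The Cpr78E site, at chr3L:21667150-21667158, was the only one with a listed summit beside it. A replicate 3 summit of rank 28316 lay 180 bp upstream of the Cpr78E TSS, next to the site, while replicate 1 and the pooled list had none there. The strongest Cpr78E summit lay elsewhere in all 3 lists, at 719 bp upstream in replicate 3, 761 bp in replicate 1 and 733 bp in the pooled list. The replicate 3 summit of Cpr72Eb was 487 bp upstream, away from its site.

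**Figure D5:**
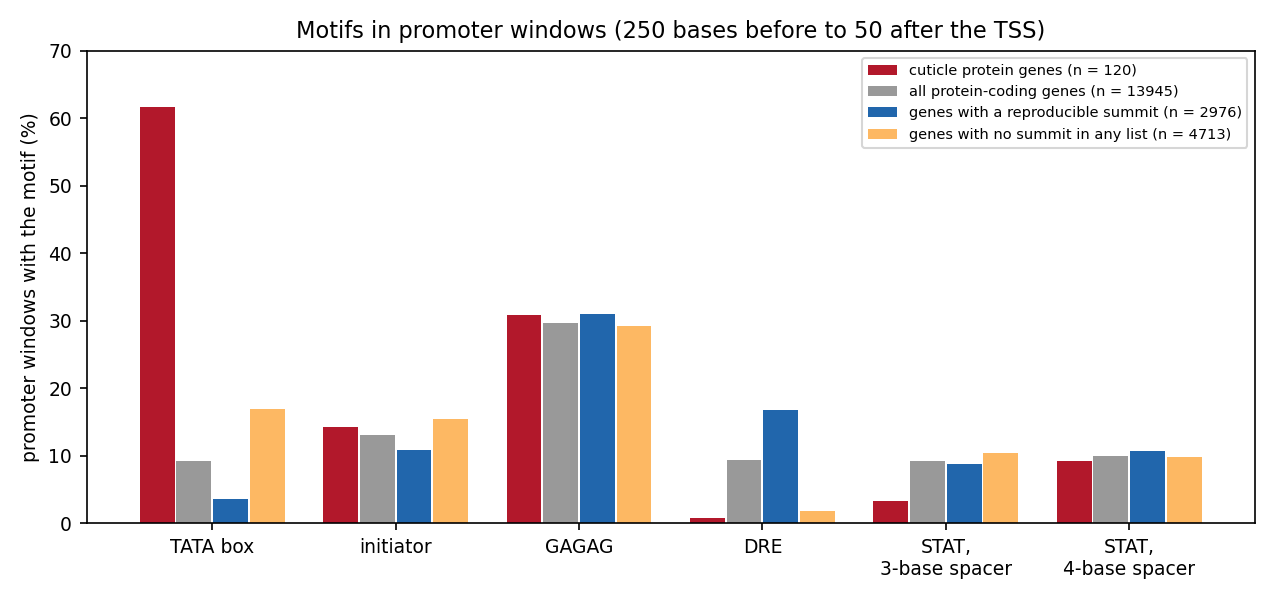
Share of promoter windows (y axis, percent) that hold each motif, for cuticle protein genes (red), all protein-coding genes (grey), genes with a reproducible summit (blue) and genes with no summit in any list (orange). The TATA box is in 61.7% of the cuticle promoters and 9.14% of all promoters, and the DRE is in 0.833% and 9.36%.

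Genes that act with the cuticle proteins were read from a list made outside the prefix rule, in which 58 of 65 symbols matched the annotation. The unmatched symbols, some of them older or alternative gene names, were left out. Of the 12 hardening and pigment symbols only 8 matched, so the shares of that group lack listed genes. The regulators of epidermis and moulting stood above the background of 21.3%: 6 of 15 (40%) had a reproducible summit and 12 of 15 (80%) a pooled one. Structural and membrane proteins of the cuticle had 1 and 5 of 17, genes of chitin synthesis and deposition 1 and 13 of 18, and genes of hardening and pigment 0 and 2 of 8. The whole list had 8 (13.8%) reproducible and 32 (55.2%) pooled summits, against backgrounds of 21.3% and 59.3%. The pooled shares of the hardening and pigment genes (25%) and of the structural proteins (29.4%) were below that background, and those of the chitin genes (72.2%) and regulators above it.

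Among the regulators, Eip75B, an ecdysone-induced nuclear receptor, had the strongest summit, rank 430 with a signal of 255, 27 bp upstream of a TSS. It had rank 338 (signal 165) in replicate 1 and 1067 (signal 88.1) in replicate 3, high in both. Hr3 and Hr4, further nuclear receptors of the ecdysone response, had ranks 1584 (signal 168) and 2169 (signal 149), at 23 bp upstream and 53 bp downstream. Blimp-1, a repressor that times ecdysone responses, had rank 2217 (signal 148), with rank 1131 in replicate 1 and 7460 in replicate 3. Eip78C had rank 2646 (signal 138), and grh, which encodes Grainyhead, had rank 3459 (signal 123).

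Outside the regulators, mmy, which encodes the pyrophosphorylase that makes the sugar nucleotide for chitin, had rank 2484 (signal 142), 48 bp downstream of its TSS. The zona pellucida protein gene pio had rank 3519 (signal 122), at 895 bp upstream and nearer to CG4681. The chitin synthase gene kkv had only a pooled summit, of rank 11039 (signal 62.2). Tb, which encodes the Tweedle protein TwdlA but does not carry the prefix, had no summit in any list, like all Twdl genes but TwdlF.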

How the data were processed

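ChIP-seq peaks of Stat92E-GFP were listed by the authors for replicates 1 and 3 of whole 0 to 12 h embryos. Per the lists that came with the samples, each replicate list was made from that replicate and a shared control on build dm6, and the pooled and IDR-thresholded lists from both replicates. The aligner, the peak caller and the IDR cutoff used are not named there. The deposited signal is a score without a stated unit, used only for ranks within a list and to describe single peaks. The deposited −log10 q was compared with a minimum of 2, and the summit column gave positions. Read depth is unknown.

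Summits were set against Ensembl release 115 gene models with Python 3.11.15 and NumPy 2.4.6, within 1 kb of any TSS. Counting was checked on simulated data. Sequences came from the RefSeq copy of the Release 6 genome, the assembly of dm6, around Ensembl TSSs. There was no test, because 1 group without a control allows none. The genes and lists were chosen with earlier results of these data known. The rule for named genes took members with a reproducible or pooled summit, those on each side of the IDR cutoff, arrays by counts, and list genes with a reproducible summit. Genes with a summit in a replicate list only, a STAT site, or a neighbour's summit, and the genes whose sequence is printed, were named after their values were seen. Alternatives changed the window, the TSSs, the gene assignment, the peak threshold, replicate support and the motif spacer.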

Additional observations from a re-analysis of the deposited data

How the results depend on the processing

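Counts are of the 121 prefix genes unless said, and 20 of the alternatives stayed within 1.5 times the reported count and 13 did not. A count has no direction, so none of the alternatives could reverse one. The reproducible count of 1 became 2 at 2 kb (Cpr and Cpr47Eg) and 0 with only the most upstream TSS, without the P450 reductase gene and with the strongest 50% of peaks. It ranged from 0 (without replicate 3) to 1 (without replicate 1), and over all protein-coding genes the count of 2976 ranged from 2846 to 2922 in the same way. With the strongest 50% of peaks the latter was 1508. The pooled count of 16 became 8 (6.61%) at 500 bp and 25 (20.7%) at 2 kb, against 54.1% and 65.1% of all protein-coding genes. With a −log10 q of at least 2 it became 5, where 6067 of all 13945 genes had such a strongest summit. It ranged from 15 to 17 with a single replicate list. The count of 9 in both replicate lists became 3 at 500 bp, 20 at 2 kb and 3 with a −log10 q of at least 2. For both replicate lists the counts over all genes at these settings are not given here. The 16 promoters with a STAT site, Cpr included, became 4 with the 3-base spacer only. Wider windows, fewer TSSs and fewer peaks change these counts by construction. No paired analysis was possible because there was 1 group and no test. Peak lists of fixed length hide depth, so weak binding near a TSS was not detectable where no peak was listed.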
